A study of Mus musculus with 1002 samples.

Results

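The immature, Atoh1 positive hair cells of the postnatal mouse utricle made up 30.2% of the hair cells found among 861 wells that passed the submitters' quality check. They were 9 of 22 hair cells at P2 (postnatal day 2), 10 of 19, 6 of 14 and 23 of 62 in 3 groups at P4, and at P6 4 of 49 in Pou4f3-DTR and 15 of 54, 13 of 45, 12 of 38 and 9 of 31 in the 4 sequencing pools of wildtype. The utricle is a balance organ of the inner ear. Its cells were sorted singly into wells and sequenced by Smart-seq2, which reads whole transcripts and carries no molecular identifiers. The cells were chosen by measured RNA levels of 9 genes. A well was taken as a hair cell where at least 4 of 6 hair cell genes (Pou4f3, Myo15, Otof, Ptprq, Espn and Cib2) reached 10 CPM, the share of a well's gene reads scaled to a common total. It was taken as Atoh1 positive where Atoh1 reached 20 CPM while Spp1, a marker of mature type I hair cells, stayed below 1000 CPM and Ocm, a marker of hair cells in the striola, stayed below 50 CPM. Of all hair cells, 55.1% had high Spp1, 3.59% (12 cells) were Ocm positive, and 11.1% (37 cells) passed without Spp1, Ocm or Atoh1.

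Hair cells are the mechanical receptors of the inner ear. Atoh1 is the basic helix-loop-helix transcription factor that starts their formation, and it is switched off as they mature. Neighbouring cells are kept from the same fate by Notch signalling, in which ligands on the young hair cell act on receptors of the cells around it. The mouse utricle goes on adding hair cells after birth, so that cells of different maturity lie side by side, and mature ones are sorted into type I cells, enclosed by a calyx ending, and type II cells, contacted by bouton endings.

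The wells came from mice of mixed C57BL/6 and FVB background in 6 groups by age in postnatal days and genotype. They were P2 Atoh1-EGFP;Pou4f3-DTR, P4 Atoh1-EGFP, P4 Pou4f3-DTR, P4 wildtype, P6 Pou4f3-DTR and P6 wildtype, and values by group below follow this order. Atoh1-EGFP names a green fluorescent reporter for Atoh1 and Pou4f3-DTR a diphtheria toxin receptor expressed from Pou4f3, itself a gene of the hair cell rule. The labels give neither the construct of each allele, nor whether toxin was given, nor the sorting gates, nor the animal of a cell. Each group was therefore 1 sample, and a p-value below measures only how alike the 6 groups were, which may hold technical spread. Age and genotype also ran with sequencing pool and enzyme. The first 3 groups were all in pool 3, with the smartscribe enzyme in both P4 groups and both enzymes at P2. P4 wildtype was pool 7, P6 Pou4f3-DTR pools 1 and 2, and P6 wildtype pools 1, 4, 5 and 6, all with the maxima enzyme.

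The values that chose the cells are given as a description. The lowest Atoh1 level of an Atoh1 positive cell was 56.9 CPM, the next 74.2, the median 604 and the highest 3742 CPM. Just outside, the highest level among the 37 cells without Spp1, Ocm or Atoh1 was 1.16 CPM, in the 1 cell of them with an Atoh1 read. Among the Spp1 high and Ocm positive cells, 10 also had Atoh1 at 20 CPM or more, with 60.1 to 563 CPM, and stayed outside. The median Spp1 level of those 10 was 15673 CPM, and Slc52a3 had reads in 2 of them. Spp1 reached at most 155.9 CPM in the Atoh1 positive cells, with reads in 11, and at least 1303 CPM in the Spp1 high cells. Ocm had reads in 2 Atoh1 positive cells, at most 36.8 CPM against the threshold of 50. All 6 hair cell genes reached 10 CPM in 93 of the cells, 5 in 6 cells and 4, the least the rule allows, in 2 cells.

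Levels of Atoh1 varied widely among the cells. The median at P2 was 200 CPM (range 138.3 to 925). At P4 it was 284.6 CPM with Atoh1-EGFP (56.9 to 1317), 428 with Pou4f3-DTR (134.8 to 814) and 1138 in wildtype (200.95 to 3742). At P6 it was 464 CPM with Pou4f3-DTR (244.6 to 892) and 629 in wildtype (129.3 to 2069). The groups overlapped throughout, with the P4 wildtype cells highest by median. Among the hair cell genes of the rule, Cib2, a calcium-binding partner of the transduction channel, had a median of 902 CPM against 150.7 in the other hair cells. Ptprq, a receptor phosphatase of the hair bundle, had 984 against 3582, and Espn, an actin bundler of stereocilia, 246.1 against 673 CPM.

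Depth was alike in both classes, but the number of genes seen was not. Reads per Atoh1 positive cell ran from 110172 to 1220650 with a median of 592453, and the median of the other hair cells was 539552. The median number of genes with reads was 4654 against 3737, and after each well was thinned to 80000 reads it was 4062 against 3196. Thinned medians were higher in the Atoh1 positive cells in every group but P2, where they were 4229 against 4352. Reads of at least 5 of 16 supporting cell markers, a sign of a possibly mixed well, were found in 14.9% of the Atoh1 positive cells (6 P4 wildtype, 8 P6 wildtype and 1 P4 Pou4f3-DTR) and in 6.01% of the others. The summed level of the 16 markers was 1589 CPM (977 to 2426 over groups) against 1242 CPM (951 to 1918), most of it Cldn9, a tight junction gene that hair cells express too, at 1063 against 858 CPM. Of the supporting cell markers Fgfr3 had no read. No gene of the mesenchyme, glia, immune, endothelium, melanocyte or erythroid lists reached 10 CPM in either class.

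Atoh1 positive cells made up 30.2% of hair cells (exact binomial 95% interval 25.4 to 35.5). By group the share was 9 of 22 (40.9%, 20.7 to 63.6) at P2, 10 of 19 (52.6%, 28.9 to 75.6) in P4 Atoh1-EGFP, 6 of 14 (42.9%, 17.7 to 71.1) in P4 Pou4f3-DTR and 23 of 62 (37.1%, 25.2 to 50.3) in P4 wildtype. At P6 it was 4 of 49 (8.16%, 2.27 to 19.6) in Pou4f3-DTR and 49 cells (29.2%, 22.4 to 36.7) in wildtype. P6 Pou4f3-DTR thus had the lowest share of the 6 groups, and its interval did not overlap that of P6 wildtype. These intervals cover counting error only, the groups are 1 sample each, and no test was made. The 4 pools of P6 wildtype gave 27.8, 28.9, 31.6 and 29.03%. In pool 1, which held both P6 genotypes, the share was 3 of 29 (10.3%, 2.19 to 27.4) against 15 of 54 (27.8%, 16.5 to 41.6), with intervals that overlapped. Unknown sorting gates and the use of Pou4f3 in the rule can set such shares, and their part was not tested.

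Slc52a3, Ccer2 and Rasd2, named with Atoh1 as markers of these cells from earlier results of the same data, were at high level in nearly all of them. Because they were chosen for that pattern, their values are a description. Slc52a3 encodes a riboflavin transporter and lies on GRCm38 chromosome 2 at 151996511 to 152009258. Its summed level per group was 679, 951, 1035, 854, 601 and 916 CPM in the Atoh1 positive cells and 105.5, 35.4, 0, 33.1, 59.2 and 9.06 CPM in the other hair cells. The groups did not overlap. Reads were found in 98.02% against 8.58% of cells, and 16 of the 20 others were cells without Spp1, Ocm or Atoh1, where the summed level was 179.2 CPM. The log2 fold change was 4.87 ± 0.96 (SE, 6 groups).

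Ccer2, a coiled-coil protein gene on chromosome 7 at 28756174 to 28758968, was at 2496, 2462, 2503, 4401, 3374 and 3862 CPM against 577, 290, 289.3, 721, 696 and 573 CPM. All Atoh1 positive cells had reads, with 690 to 7881 CPM per cell, and so did 85.8% of the others. It was thus a gene of both classes that differed by level, with a log2 fold change of 2.47 ± 0.17. In the cells without Spp1, Ocm or Atoh1 it stood at 2263 CPM, against 301.4 CPM in Spp1 high cells. Rasd2, a small GTPase also known as Rhes, on chromosome 8 at 75213944 to 75224113, was at 379.4, 327.3, 298.6, 819, 485 and 791 CPM against 50.2, 31.3, 2.30, 70.8, 35.6 and 70.4 CPM, a log2 fold change of 3.67 ± 0.45. It had reads in 97.03% against 26.6% of cells. Outside the hair cell rule, where 527 passed wells had a median of 498549 reads, Slc52a3 had reads in 1.71%, Ccer2 in 8.35% and Rasd2 in 1.52% of wells. Whether those reads were expressed in these wells or stray was not tested.

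**Figure D1:**
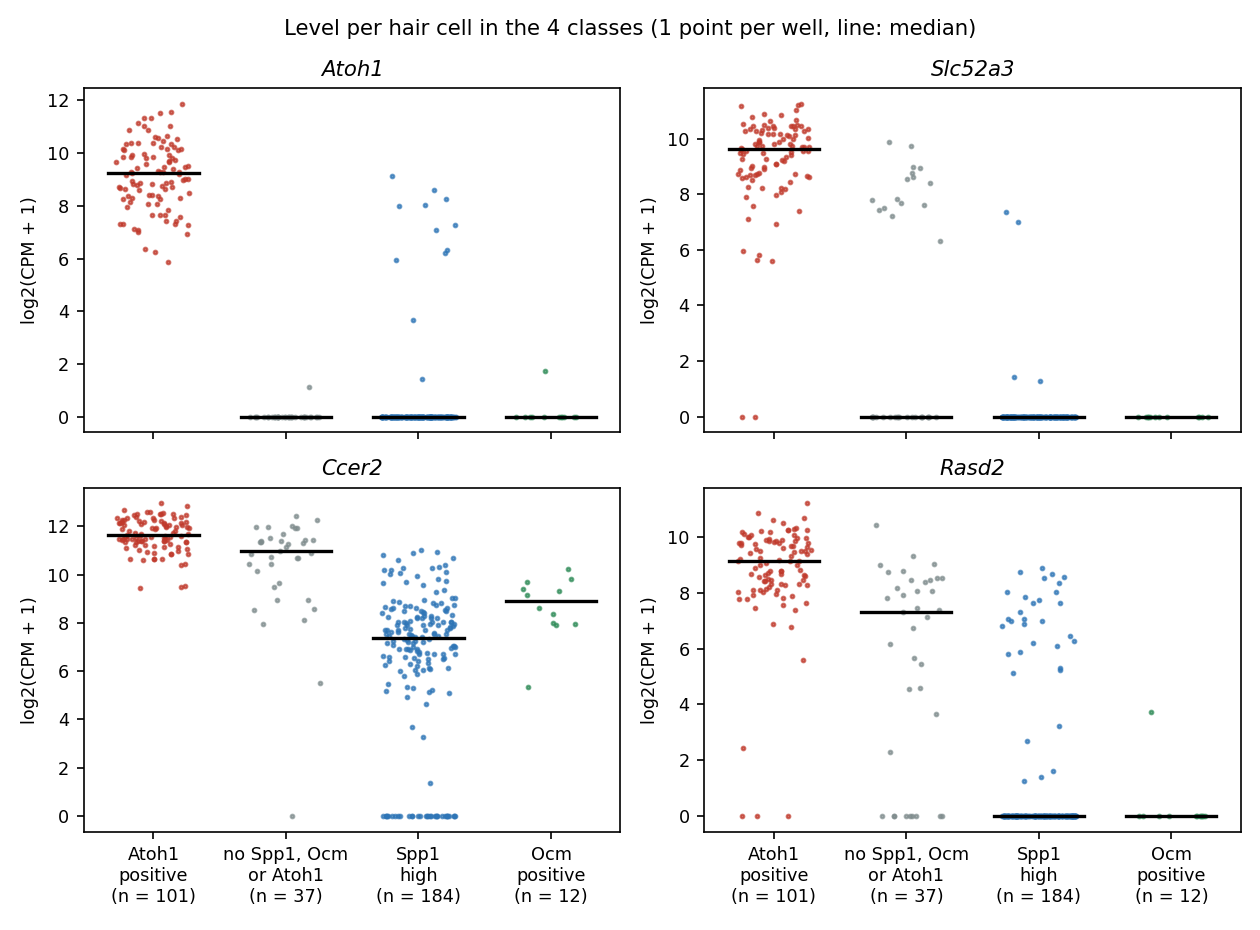
Level of Atoh1, Slc52a3, Ccer2 and Rasd2 in single hair cells, as log2(CPM + 1), for the Atoh1 positive cells, the 37 without Spp1, Ocm or Atoh1, the Spp1 high and the 12 Ocm positive cells; each point is a well and each line a median. Atoh1 separates the classes by the rule itself, while Ccer2 is also at high level in the cells without Spp1, Ocm or Atoh1.

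The summed counts of the 6 groups were then compared between the Atoh1 positive and all other hair cells, with the group kept as a block, over the 10230 genes that passed a filter on low counts. The 9 genes of the rule were not tested. The edgeR quasi-likelihood test called 433 genes, 1.67% of those tested higher and 2.56% lower, at an adjusted p below 0.05, and the median log2 fold change of all genes was -0.13. Without regard to the test, the 6 Atoh1 positive values lay all above the 6 others for 2.23% of genes and all below for 2.12%. The classes were cut on the RNA of the same cells, and most of the other hair cells had high Spp1, so genes that differ between type I cells and the rest enter this comparison. Genes of striolar cells enter it too, because hair cells with Ocm at 50 CPM or more were all placed among the others. The mean of per-cell CPM with limma moved the split of called genes, with 53.8% of them higher against 39.5% here.

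Among Notch genes, the ligand Jag2 was higher in the Atoh1 positive cells, as were the fringe enzyme Mfng, which modifies Notch receptors, and Hes6, a helix-loop-helix factor expressed in cells that differentiate. Hes6, on chromosome 1 at 91411483 to 91414038, was at 221.3, 510, 426, 412.5, 162.2 and 283.4 CPM against 80.1, 19.9, 63.8, 19.7, 17.04 and 25.3 CPM, without overlap (log2 fold change 3.15 ± 0.43, adjusted p = 0.00503). It had reads in 85.1% against 17.6% of cells. In the 527 wells outside the rule 17.5% had Hes6 reads, close to the 17.6% of the other hair cells. Jag2 was at 150, 131.02, 129.3, 214.96, 136.04 and 168.05 CPM against 17.8, 41.6, 31.9, 45.7, 29.5 and 45.7 CPM (1.98 ± 0.30, adjusted p = 0.00764), and both calls held without each group in turn. In maxima wells alone the call of Jag2 was lost (adjusted p = 0.0906) and that of Hes6 was kept. That setting has no P4 Atoh1-EGFP or P4 Pou4f3-DTR cells and keeps 4 Atoh1 positive and 7 other cells of P2, so fewer groups enter it. Mfng was at 54.8 to 330 CPM against 5.25 to 31.8 CPM (2.83 ± 0.47, adjusted p = 0.0119), a call lost without P4 or P6 wildtype, with adjusted p up to 0.0654.

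The rest of the Notch lists did not pass the test. Of the 5 ligands 1 was called, of the 9 tested modifiers 1, of the 3 tested Hes family genes 1, and the single tested receptor, Notch1, was not, against 1.67% of all genes called higher. Dll3, a Notch ligand that acts within its own cell, had reads in 46.5% against 2.15% of cells and was at 142.2, 83.3, 206.9, 111.01, 25.5 and 122.4 CPM against 46.2, 0, 0, 0, 2.32 and 0.528 CPM. Its log2 fold change of 7.33 ± 1.81 had an adjusted p of 0.0568. Dll1, a ligand of nascent hair cells, was at 0 to 126.3 CPM against 14.04 to 98.5 CPM (-0.79 ± 1.00, adjusted p = 0.8), and its sign changed when the group was left out of the model. Hes1 and Hes5, targets of active Notch, were at 3.09 and 5.29 CPM in the summed Atoh1 positive cells and were too low to test.

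Of 20 tested hair cell transcription factors 3 were called higher and 1 lower, against 1.67% and 2.56% of all genes tested. Nhlh1, a helix-loop-helix factor of early neurons, had reads in 95.05% against 23.6% of cells (2.99 ± 0.65, adjusted p = 0.0344). Lhx3, a LIM homeobox factor of vestibular hair cells, was at 212.8 to 529 CPM against 69.8 to 273.8 CPM (1.06 ± 0.24, adjusted p = 0.0395), and Tcf4, a partner of Atoh1, at 134.96 to 236.3 CPM against 48.99 to 99.997 CPM (1.07 ± 0.24, adjusted p = 0.0396). Each of these 3 calls was lost without at least 4 of the groups in turn, with adjusted p up to 0.181. The zinc finger factor Gfi1, needed for hair cell survival, was the one called lower, at 93.3 to 417 CPM against 195.6 to 1073 CPM and lower in 6 of 6 groups (-1.95 ± 0.23, adjusted p = 0.00296), a call lost with no replicate block (adjusted p = 0.0888). It had reads in 59.4% against 83.3% of cells. Of 7 tested progenitor and inhibitor factors Pax2, an early otic factor, was called, at 41.7 to 181.1 CPM against 3.5 to 49.4 CPM (2.40 ± 0.44, adjusted p = 0.018), but not without P2, P4 wildtype or P6 wildtype (adjusted p up to 0.0763). Sox2, a factor of supporting and type II cells, was at 0.549 to 34.98 CPM against 3.07 to 49.2 CPM, with a sign that depended on the setting.

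Of 5 tested cell cycle inhibitors 2 were called higher and 1 lower, against 1.67% and 2.56% of all genes tested. Cdkn1c, which encodes the inhibitor p57, was at 519, 640, 793, 266.1, 115.03 and 174.9 CPM against 128.8, 6.12, 26.3, 8.26, 2.88 and 6.47 CPM, with reads in 86.1% against 7.73% of cells (4.63 ± 0.55, adjusted p = 0.00296). Within each group the Atoh1 positive value was the higher. The Cdkn1c call was lost in maxima wells alone (adjusted p = 0.0553). Cdkn1a, p21, was at 117.1 to 417 CPM against 12.7 to 108.8 CPM (3.20 ± 0.62, adjusted p = 0.0212; up to 0.0866 without a group). Cdkn2d, p19, which keeps hair cells out of the cycle, was called lower, at 174.6 to 438 CPM against 565 to 963 CPM (-1.35 ± 0.27, adjusted p = 0.0241; up to 0.0852 without a group). Of 16 cell cycle genes 6 were tested and Mcm6, a subunit of the replication helicase, was called higher, at 98.04 to 275.5 CPM against 7.87 to 59.3 CPM without overlap (2.64 ± 0.38, adjusted p = 0.00612). Its call was lost in cells with at least 5 of the 6 hair cell genes and in maxima wells alone, with adjusted p up to 0.178. Another 8 were below 1 CPM in the Atoh1 positive cells, and 4 of them, Ccnb1, Ccnb2, Cdk1 and Aurkb, had no read. The summed level of the 16 was 153.3 to 381.1 CPM over groups against 71.5 to 151.03 CPM.

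**Figure D2:**
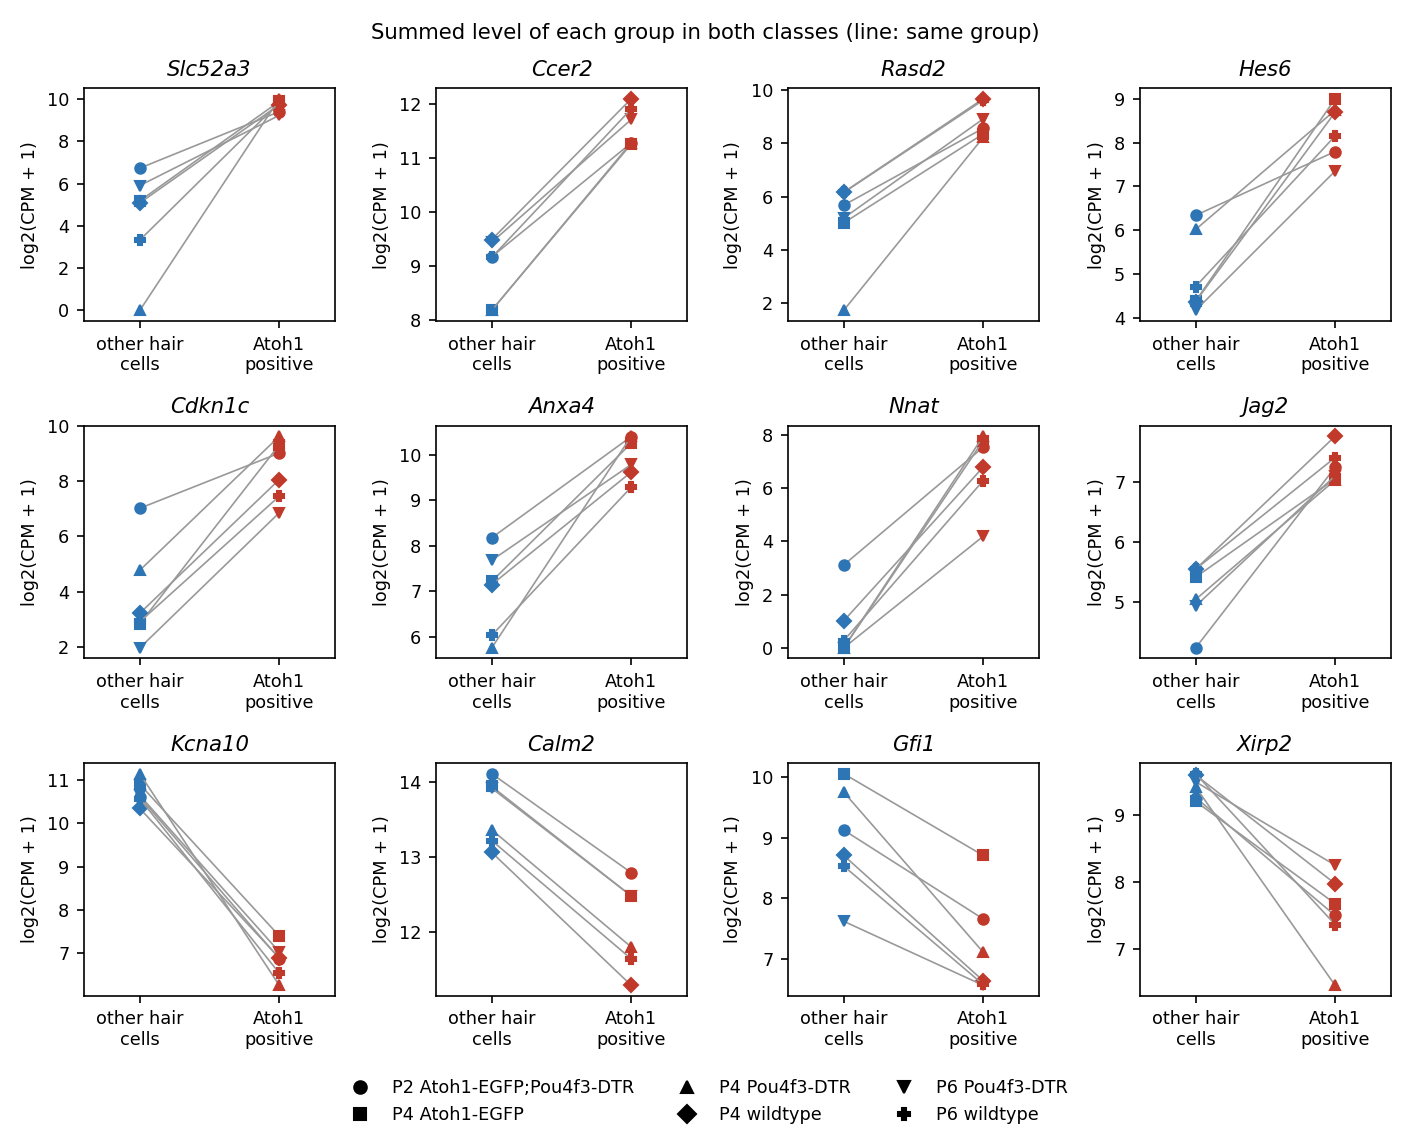
Summed level of 12 genes in each of the 6 groups, as log2(CPM + 1), with the other hair cells on the left (blue) and the Atoh1 positive cells on the right (red), marker shapes for the groups and a line joining both values of a group. For Slc52a3, Hes6 and the other genes of the first 8 panels all 6 lines go up, and for Kcna10, Calm2, Gfi1 and Xirp2 all 6 go down.

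Lists of type I, striolar, bundle and synapse genes had more calls lower than higher, though most of their type I, bundle and synapse genes were not called. Kcna10, a voltage-gated potassium channel gene of type I and striolar cells, was at 116.4, 167.8, 75.6, 117.8, 130 and 91.98 CPM against 1563, 1912, 2268, 1299, 1601 and 1522 CPM. The groups were apart, with reads in 47.5% against 94.4% of cells (-4.06 ± 0.24, adjusted p = 8.99e-05). It was the 1 type I marker called of 4 tested. Bmp2, of the type I list, had no read in the Atoh1 positive cells against 1.09 to 63.9 CPM in the others. Its adjusted p was 0.0752, so it was not called. By a floor of 3 reads over the summed cells it was at least 581-fold lower (340.9-fold without P6 wildtype and 353.7-fold without P6 Pou4f3-DTR). That bound rests on reads pooled over groups. Within single groups it ran from 0.663-fold at P2, which shows no difference, to 235.9-fold in P6 wildtype. Striolar genes are partly set by the rule, which kept cells with Ocm at 50 CPM or more out of the Atoh1 positive class. Ocm reached 10 CPM in 1 Atoh1 positive cell and 47 other hair cells, so the following count is a description. Of the striolar list, 4 of 6 tested genes were called lower against 2.56% of all genes. They were Calb1, a calcium buffer with reads in 0.99% against 24.9% of cells, Car8, Cabp2 and Atp2b2, the calcium pump of the bundle. Atp2b2 was at 23.4 to 169.5 CPM against 114.4 to 987 CPM (-2.91 ± 0.24, adjusted p = 0.000621), and the call of Car8 was lost without 4 of the groups in turn (adjusted p up to 0.0652).

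Of 9 tested calcium buffers 3 were called lower, against 2.56% of all genes tested. They were Calb1 and Cabp2 again and Calm2, a calmodulin gene. Calm2 was at 7081, 5714, 3567, 2505, 5715 and 3199 CPM against 17641, 15689, 10516, 8539, 15438 and 9524 CPM (-1.71 ± 0.12, adjusted p = 0.000185). Every group showed it, although the reading of P4 wildtype others, 8539 CPM, was only just above that of the P2 Atoh1 positive cells.

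Hair bundle and transduction genes gave 8 calls lower and 1 higher of 32 tested, against 2.56% and 1.67% of all genes tested. The list median was -0.75 against -0.13 for all genes. Xirp2, an actin-binding protein of stereocilia, was at 180.7, 204.3, 87.1, 251.5, 304.8 and 164.3 CPM against 615, 591, 686, 778, 725 and 788 CPM (-2.08 ± 0.25, adjusted p = 0.00296). Fbxo2, an ubiquitin ligase subunit abundant in the inner ear, was at 411.5 to 1011 CPM against 1819 to 3928 CPM (-1.99 ± 0.19, adjusted p = 0.00101). Neither gene overlapped between the classes. Fscn2 and Pls1, which crosslink actin in stereocilia, had log2 fold changes of -2.43 ± 0.40 and -1.40 ± 0.22, and Ush1c, the scaffold harmonin, -1.57 ± 0.22. Tmc2, the transduction channel gene of young hair cells, had reads in 13.9% against 52.8% of cells (-4.28 ± 1.01, adjusted p = 0.0479). Tmc1, the channel gene of later stages, was at 6.27 to 271.4 CPM against 17.7 to 192.3 CPM and did not pass (-0.77 ± 0.50, adjusted p = 0.531). Among the genes called lower, Tmc2, Fscn2 and Grxcr2 lost their call without at least 1 group, with adjusted p up to 0.169.

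Synapse and channel genes gave 4 calls lower and 1 higher of 20, against 2.56% and 1.67% of all genes tested. Kcnma1, the large calcium-activated potassium channel of mature hair cells, had reads in 5.94% against 47.6% of cells (-6.48 ± 1.3, adjusted p = 0.0251). Snap25, a vesicle fusion protein, was higher, at 149.1 to 326.3 CPM against 55.4 to 98.4 CPM (1.22 ± 0.22, adjusted p = 0.0149). The Snap25 call was lost without P4 or P6 wildtype, and that of Kcnma1 without these, P2 or P4 Pou4f3-DTR, with adjusted p up to 0.0847. Of 14 general hair cell markers, some of them counted in lists above, 4 were lower (Gfi1, Smpx, Chrna10 and Acbd7) and Lhx3 was higher. The Acbd7 call was lost without any 1 of the groups (adjusted p up to 0.137) and that of Chrna10 without P4 Atoh1-EGFP or P6 wildtype (up to 0.0611). Smpx, a small muscle-type protein, was at 389.2 to 987 CPM against 1044 to 1667 CPM (-1.26 ± 0.15, adjusted p = 0.00296). The neurofilament genes Nefl and Nefm were lower as well, at -1.58 ± 0.18 and -1.09 ± 0.19, and the Nefm call was lost without P4 or P6 wildtype (adjusted p up to 0.0618).

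Type II markers and other groups were mixed. Anxa4, an annexin of type II cells, was at 1345, 1216, 1351, 783, 879 and 622 CPM against 287.1, 147.4, 52.9, 140, 203.4 and 64.2 CPM, with reads in all Atoh1 positive cells against 42.1% of the others (2.76 ± 0.32, adjusted p = 0.00296). It was the only 1 called of 6 tested, against 1.67% of all genes called higher. Calb2, calretinin, was at 51.5 to 369.5 CPM against 2.81 to 221.2 CPM (1.16 ± 0.49, adjusted p = 0.277), and Rprm, a p53 target of type II cells, had reads in 38.6% against 3.004% of cells (6.03 ± 1.58, adjusted p = 0.0705). None of the 11 tested supporting cell markers was called, with a median of 3.19 that fell to -0.32 in maxima wells alone.

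Of 13 tested immediate early and heat shock genes 3 were called higher and 1 lower, with a list median of -0.52 against -0.13 for all genes. For this and the next lists, 1.67% of all genes tested were called higher and 2.56% lower. Those higher were Egr1, Ier2 and Junb, immediate early genes, which respond to many stimuli, cell dissociation among them, whose part here was not tested. Egr1 was at 473, 336.7, 792, 464, 513 and 832 CPM against 98.3, 146.3, 110, 160.8, 260 and 180 CPM (1.65 ± 0.27, adjusted p = 0.01), and Ier2 had reads in 86.1% against 16.7% of cells (3.30 ± 0.48, adjusted p = 0.00699). Fos, of the same kind, was at 282.97 to 1661 CPM against 105.4 to 1146 CPM and was not called (0.42 ± 0.31, adjusted p = 0.599). The Junb call was lost without 5 of the 6 groups in turn (adjusted p up to 0.125). Those of Egr1 and Ier2 were lost in maxima wells alone (adjusted p = 0.128 and 0.0959). The chaperone gene Hsp90aa1 was the one lower (-1.10 ± 0.17, adjusted p = 0.00827). Of 76 ribosomal protein genes 3 were called, all higher, Rplp0 and Rpl7 among them, and the list median was 0.46. The Rpl7 call was lost without 5 of the groups in turn (adjusted p up to 0.141). Reads of ribosomal genes may be shared with their pseudogenes. None of the 13 mitochondrially encoded genes was called. Of 23 tested cilium and basal body genes Kif3a, a motor of transport in cilia, and Cfap126 were lower, and of 11 planar polarity genes the receptor Fzd3 was higher. The Cfap126 call was lost without any 1 of the groups (adjusted p up to 0.101) and that of Fzd3 without 4 of them in turn (up to 0.0826).

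**Figure D3:**
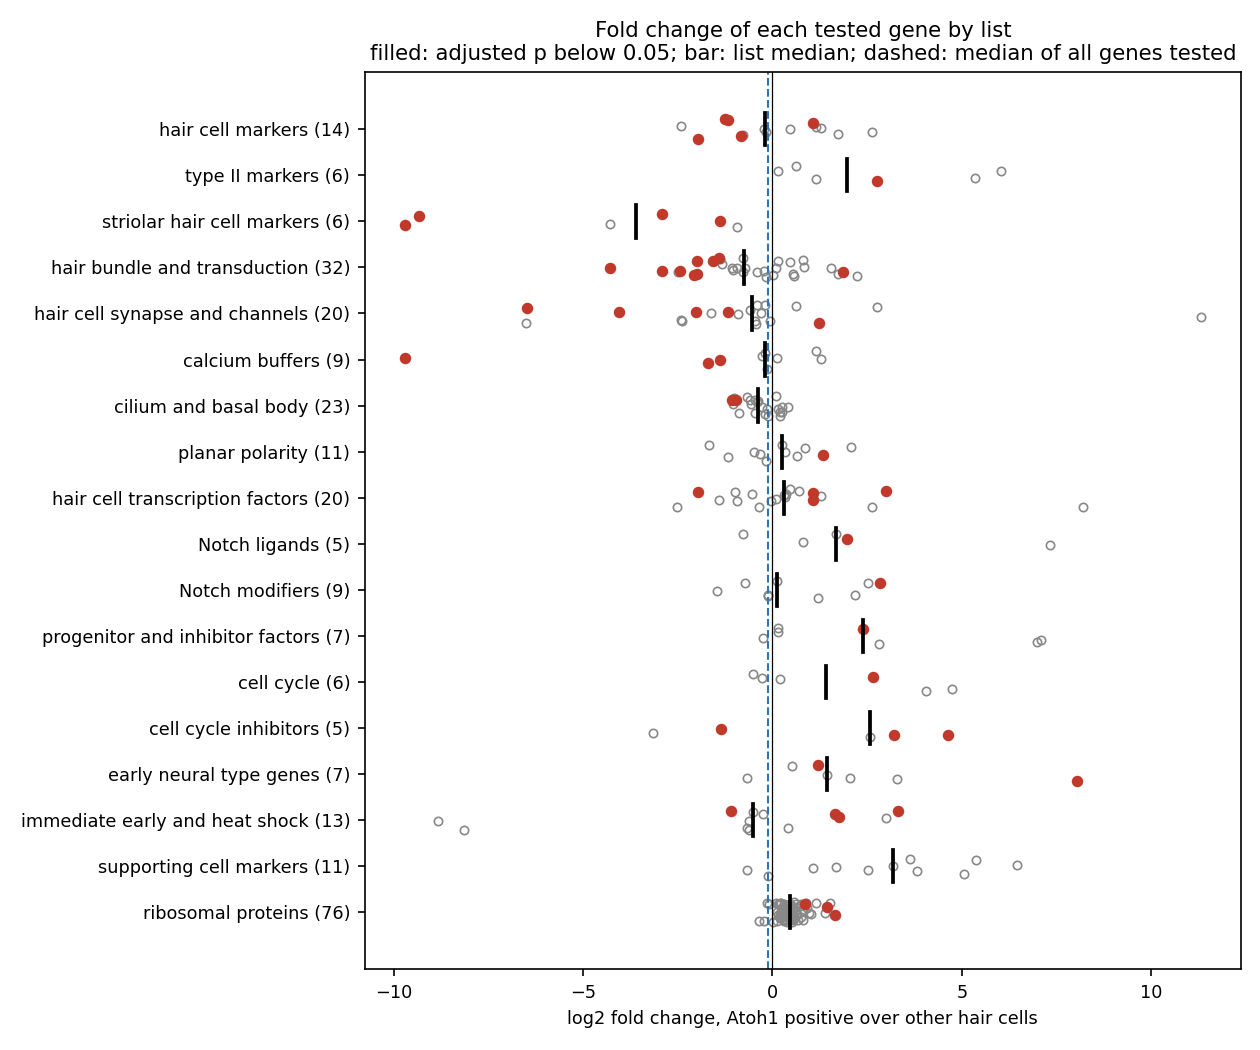
Log2 fold change of each tested gene, Atoh1 positive over other hair cells, by gene list with the number tested; filled points passed an adjusted p of 0.05, bars are list medians and the dashed line is the median of all genes tested. The bundle, synapse and striolar lists have their filled points mostly left of 0, and the transcription factor and inhibitor lists mostly right of it.

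The genes with the largest differences are given as a description, since ranking by fold change favours genes near absent from one class. A fixed rule took the 15 largest log2 fold changes in each direction among called genes with the same sign in all 6 groups, 50 CPM and reads in 25% of cells in the higher class. The higher ones included Lct, Draxin, Oacyl, Slc16a5, P2rx3, Nnat, Asic4, Smtn, Ly6e, Cryab, Stk10, Tmem173 and Col18a1, with log2 fold changes from 10.92 down to 5.10. Their reads were found in 35.6% to 95.05% of the Atoh1 positive cells and in 0.429% to 7.73% of the others. Only Oacyl and Stk10 overlapped between the classes, while of all tested genes 2.23% lay wholly above. The rule itself favours genes without overlap.

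Nnat, neuronatin, an imprinted gene for a small membrane protein of developing neurons, was at 184.5, 220, 245.5, 109.5, 17.2 and 76.7 CPM against 7.64, 0, 0, 1.02, 0 and 0.204 CPM, with reads in 47.5% against 2.15% of cells (8.03 ± 1.09, adjusted p = 0.00491). Tmem173, the innate immune adaptor STING, was at 230, 259.4, 140, 287.1, 313.7 and 214.7 CPM against 5.10, 13.8, 0, 16.3, 27.04 and 1.06 CPM, with reads in 95.05% against 5.58% of cells (5.21 ± 0.82, adjusted p = 0.00884). Of the other hair cells with reads 12 were without Spp1, Ocm or Atoh1, and 0 were Spp1 high. Ly6e, a lipid-anchored surface protein, had reads in 84 against 8 cells (6.10 ± 0.85, adjusted p = 0.00538), and Draxin, a secreted axon guidance protein, in 36 against 1 (10.68 ± 1.73, adjusted p = 0.0103). These 4 kept their call without each group in turn, but lost it in maxima wells alone (adjusted p from 0.0520 to 0.148). Lct, the gut enzyme lactase, was at 17.02, 38.99, 31.7, 85.2, 28.2 and 115.1 CPM against 0, 3.72, 0, 0, 0 and 0 CPM, in 47 cells against 1 (10.92 ± 2.07, adjusted p = 0.0194; up to 0.0897 without a group). P2rx3, an ATP-gated channel subunit of sensory neurons, was at 61.5, 84.7, 128.7, 262.1, 120 and 233.3 CPM against 25.1, 0, 0, 1.13, 0.36 and 0.017 CPM. The monocarboxylate transporter gene Slc16a5 was in 56 cells against 2, and the small heat shock gene Cryab in 83 against 18.

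The 15 lower ones were Ighm, Synpr, Syt12, Wnt5a, Car7, Fcrlb, Trim45, Csmd1, Cmip, Krt23, Kcnab1, Car12, Hs6st2, Kcnma1 and Clu. Each had reads in at most 9 Atoh1 positive cells, and only Krt23 overlapped between the classes. Of all tested genes 2.12% lay wholly below, and here too the rule favours such genes. Ighm, the heavy chain constant region of immunoglobulin M, had no read in any Atoh1 positive cell and 459, 2358, 1014, 117.2, 448 and 361.2 CPM in the others, in 57.9% of cells. That is at least 8249-fold lower by the floor of 3 reads over the summed cells (adjusted p = 0.000705). The bound rests on the reads pooled over groups, and was 4799-fold without P6 wildtype and, within single groups, from 278.6-fold at P2 to 3527-fold in P4 Atoh1-EGFP. Synpr, a synaptic vesicle protein, had 1 read in 1 Atoh1 positive cell and 122.05 to 279.1 CPM in the others, in 46.8% of cells (adjusted p = 7.92e-06). Car7, a carbonic anhydrase, was at 4.39, 0, 0, 0, 0 and 5.18 CPM against 380.7, 688, 507, 459, 719 and 388.03 CPM (-9.57 ± 1.22, adjusted p = 0.00372), and Fcrlb, an Fc receptor relative, had reads in 3.96% against 49.4% of cells (-8.83 ± 1.36, adjusted p = 0.00824). Wnt5a, a secreted Wnt ligand, had reads in 2 against 71 cells (-10.02 ± 1.76, adjusted p = 0.0146; up to 0.0655 without a group). For most of these genes the reads of the other hair cells came from Spp1 high cells, as with Synpr, read in 57.1% of Spp1 high cells against 10.8% of those without Spp1, Ocm or Atoh1.

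Of the 30 genes, 8 kept their call without each group in turn, Draxin, Ly6e, Nnat, Tmem173, Car7, Fcrlb, Ighm and Synpr. The other 22 lost it without at least 1, and Asic4 without any; the highest adjusted p was 0.171, of Stk10. Without P2 13 were lost, without P4 Atoh1-EGFP 19, without P4 Pou4f3-DTR 15, without P4 wildtype 16, without P6 Pou4f3-DTR 4 and without P6 wildtype 16, and in maxima wells alone 25. Of 78 called genes followed through every alternative, 54 lost their call in maxima wells alone and 21 with no replicate block, among them Lhx3, Nhlh1, Gfi1, Tmc2, Ush1c, Kcnma1, Snap25, Kif3a, Hsp90aa1, Lct, Oacyl and P2rx3. Those lost in maxima wells alone include Slc52a3, Rasd2, Jag2, Mfng, Cdkn1c, Egr1, Ier2, Nnat, Tmem173, Ly6e and Draxin. Hes6, Anxa4, Kcna10, Calm2, Xirp2, Fbxo2, Ighm and Synpr kept their call in both settings. Maxima wells alone leave fewer groups, so enzyme and number of groups cannot be told apart there.

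The stretch before the start of a few genes is shown because basic helix-loop-helix factors such as Atoh1 bind short E-box motifs, of which CAGCTG is one. RefSeq promoters on GRCm38.p6 were searched over the 250 bases before each start for CAGCTG, which reads the same on both strands. It was present in 13.001% of all 32851 promoters, 11.5% of those of tested genes, 16.4% of those matched for genes called higher and 12.7% for genes called lower. Ccer2 (chr7:28755924-28756173, plus strand), Hes6 (chr1:91414039-91414288, minus strand) and Draxin (chr4:148130699-148130948, minus strand) are 3 called genes with the motif, printed 5′ to 3′ with it in capitals. Stk10, not printed, held the motif as well. The promoters of Atoh1, Rasd2, Lct, Nnat, Smtn and Col18a1 did not hold these letters in this window. Some named genes, Slc52a3 among them, had no promoter entry. A match is a description and was not tied to binding.
Ccer2: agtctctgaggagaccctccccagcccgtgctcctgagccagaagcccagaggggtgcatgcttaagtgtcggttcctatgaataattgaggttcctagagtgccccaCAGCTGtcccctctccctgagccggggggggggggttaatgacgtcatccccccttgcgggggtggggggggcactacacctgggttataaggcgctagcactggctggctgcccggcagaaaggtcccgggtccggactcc
Hes6: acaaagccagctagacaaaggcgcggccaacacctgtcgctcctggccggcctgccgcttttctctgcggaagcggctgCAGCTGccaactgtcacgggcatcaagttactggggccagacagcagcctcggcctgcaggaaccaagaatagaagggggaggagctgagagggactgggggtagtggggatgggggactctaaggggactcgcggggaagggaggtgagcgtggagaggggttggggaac
Draxin: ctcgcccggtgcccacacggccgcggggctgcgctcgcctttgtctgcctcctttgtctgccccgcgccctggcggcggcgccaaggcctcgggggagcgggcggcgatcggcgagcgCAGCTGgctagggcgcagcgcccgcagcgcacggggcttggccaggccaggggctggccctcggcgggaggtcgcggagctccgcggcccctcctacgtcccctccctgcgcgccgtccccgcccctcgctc

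Against the 37 cells without Spp1, Ocm or Atoh1 alone, no gene was called. This fit had 4 groups (P2, P4 wildtype, P6 Pou4f3-DTR and P6 wildtype) with 85 Atoh1 positive and 35 comparison cells. The edgeR test called 0 of 9191 genes (0%), with 417 at an unadjusted p below 0.05 and a lowest adjusted p of 0.592, whereas DESeq2 called 663. Rasd2 had a log2 fold change of 1.43, Slc52a3 1.85, Hes6 2.48 and Ccer2 0.60, each less than against all other hair cells. Kcna10 (-2.35) and Calm2 (-1.07) were also lower here, with summed levels of 673 and 8214 CPM in the cells without Spp1, Ocm or Atoh1, between those of the Atoh1 positive and the Spp1 high cells. Nnat (8.72) and Lct (12.22) had larger log2 fold changes than against all other hair cells, each with reads in at most 4 of the 37 cells. Adjusted p-values of all these were 0.592 or more.

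Cells of the class differed in which of the rarer genes they carried. Nnat was read in 48 cells (47.5%), Dll3 in 47, Lct in 47, Oacyl in 51, Slc16a5 in 56 and P2rx3 in 60. Of the 48 cells with Nnat, 39 also had P2rx3, 30 had Dll3 and 29 had Lct. In P6 wildtype, the group with the most cells, the median Atoh1 level was 777 CPM in the 23 cells with Nnat and 480 CPM in the 26 without, and in P4 wildtype 1471 in 9 and 764 CPM in 14. Median reads were 502129 with and 607090 without Nnat at P6, and 802048 with and 758038 without at P4. For Lct the Atoh1 medians at P6 were 633 and 623 CPM, nearly alike.

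Across cells of 1 group the relation to Atoh1 was weak for most genes. It is given without a test because the cells of a group are not replicates and differ in depth. Spearman's rho of Hes6 with Atoh1 was 0.36 over 49 P6 wildtype and 0.42 over 23 P4 wildtype cells, and that of P2rx3 was 0.36 and 0.38. Ptprq had -0.26 and -0.53, and Calb2 -0.30 and -0.44. Slc52a3 (0.36 and -0.14) and Ccer2 (0.34 and -0.46) had different signs in the 2 groups.

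At P6 the Atoh1 positive wildtype cells (49) had less Atoh1 than at P4 (23), at 779 against 1479 CPM summed over cells, while Slc52a3 was at 916 against 854 CPM, Ccer2 at 3862 against 4401 and Rasd2 at 791 against 819. Hes6 was at 283.4 against 412.5 CPM. All 4 P6 pools were below P4 for Atoh1, with 581, 797, 807 and 956 CPM. For the other 3 genes the pools ran below and above P4, with Slc52a3 at 537 to 1536 CPM, Ccer2 at 2654 to 5176 and Rasd2 at 559 to 966. Each age is 1 sample and was sequenced in pools of its own, so age and pool cannot be told apart and no test was made. By a fold of 2, 6.72% of 5028 measured genes were higher and 8.49% lower at P6.

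The largest of these by the fixed rule were Il6st, the shared receptor subunit of the interleukin 6 family, and Trim44, Paxip1, Orc2, Ube3c, Cul9, Acp6 and Lonp2 on the higher side. Il6st was at 62.5, 66.7, 49.9 and 47.996 CPM in the 4 P6 pools (56.4 in all, Poisson 95% interval 53.7 to 59.3) against 0.621 CPM (0.31 to 1.11) at P4. It had reads in 23 of 49 against 2 of 23 cells, and the interval does not cover the spread between cells. In the other wildtype hair cells Il6st was at 62.96 CPM at P6 and 39.4 CPM at P4. On the lower side were Tecta, Kpnb1, Aldh6a1, Aldh4a1, Zc3h10, Pcdhb11, Acap3 and Abraxas2. Tecta, the alpha-tectorin of the acellular membranes over the sensory epithelium and a supporting cell gene, was at 2.23 against 113.6 CPM, with reads in 2 of 49 against 6 of 23 cells. Of the 5 measured supporting cell markers 4 were lower at P6, Otog, Slc1a3, Lfng and Tecta, and none higher. Otog had reads in 4 of 49 against 6 of 23 cells and was at 184.99 CPM in P6 pool 4. In the other hair cells of the same groups Otog (95.03 against 0.0755 CPM), Tecta (18.001 against 0) and Slc1a3 (17.7 against 0) were higher at P6. Lfng was lower there too (7.99 against 10.3 CPM). Possibly mixed wells were 8 of 49 at P6 and 6 of 23 at P4, and their part in these marker levels was not tested.

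Few genes of the hair cell lists moved past 2-fold, and few of all 5028 measured genes did, with 6.72% higher and 8.49% lower. The lists were not tested against these shares. Of 28 measured bundle genes 1 was higher (Adgrv1, though pool 5 at 23.3 CPM was below the 34.8 CPM of P4) and 1 lower (Eps8), of 9 synapse genes none moved past 2-fold, and of 14 transcription factors 1, Isl1, was higher (72.8 against 33.01 CPM). Dll1 was at 126.3 CPM (60.3 to 210 over the 4 pools) against 32.9 CPM, with reads in 22 of 49 against 5 of 23 cells. Of the mitochondrially encoded genes 4 of 10 were higher at P6, as mt-Atp6 at 2013 against 727 CPM. All 4 pools were above P4 for mt-Atp6 and mt-Nd2, while mt-Atp8 was at 50.9 CPM in pool 5 against 62.8 at P4 and mt-Co2 at 141.1 CPM in pool 6 against 223.1.

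**Figure D4:**
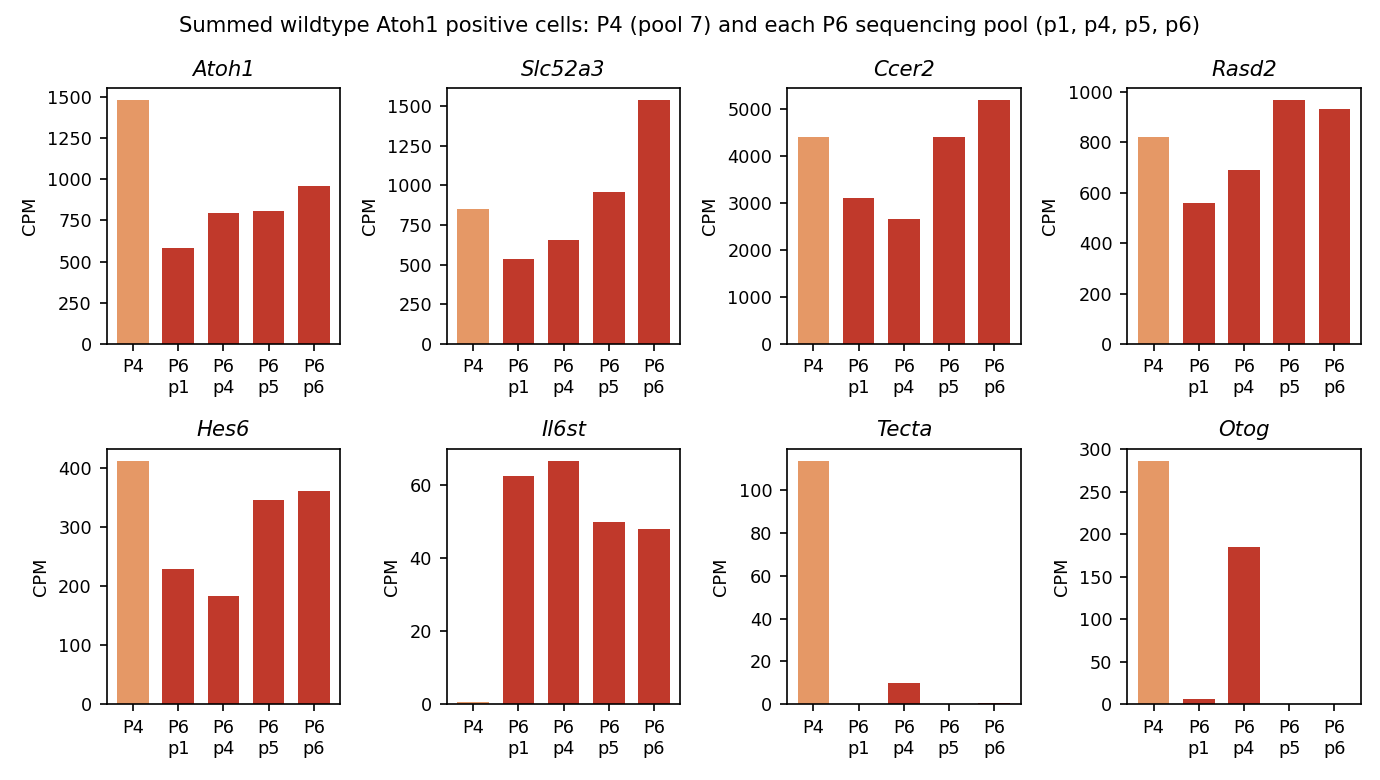
Summed level in CPM of 8 genes in the Atoh1 positive wildtype cells at P4 (pool 7, orange) and in each of the 4 P6 pools (red). Atoh1 is below its P4 bar in all 4 P6 pools, Il6st is near 0 at P4, and Tecta and Otog are near 0 in most P6 pools.

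The 4 Atoh1 positive cells of P6 Pou4f3-DTR are too few for a comparison and are given one by one beside the range of the 49 P6 wildtype cells. Atoh1 was at 244.6, 340.8, 586 and 892 CPM (wildtype 129.3 to 2069, median 629). Slc52a3 was at 399.01, 475, 489 and 1120 CPM (0 to 2440, median 751), Ccer2 at 2850, 2953, 3382 and 4138 CPM (718 to 7370, median 3365), and Hes6 at 69.7, 142.2, 164.3 and 245.8 CPM (0 to 977, median 225.4). All 4 cells lay within the wildtype range for these genes. Psat1, an enzyme of serine synthesis, was at 2838, 3404, 3448 and 5555 CPM (997 to 5085, median 2391), and its highest value was above the wildtype range.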

How the data were processed

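Wells were grouped by the age and genotype in the labels. The authors deposited 1 table of expected counts per gene and well, made with STAR 2.5.3a, RSEM 1.3.0 and the mm10 genome, per the submitters' processing notes. The annotation and the strand setting were not given in the sources used here, so reads of overlapping or antisense genes cannot be told apart. Of the nonzero deposited expected counts 84.6% were whole, and all were rounded. Of 1002 wells, 141 labelled failed were left out. Of 334 hair cells, 101 were Atoh1 positive and 233 others: 184 Spp1 high, 12 Ocm positive and 37 without Spp1, Ocm or Atoh1. CPM used the 52636 genes, without 92 spike-ins and 2 transgene entries; 52403 genes matched GENCODE M21 on GRCm38 for coordinates. No wells were identical. No doublet caller was run on plate wells.

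Counts were summed per group and class and tested with edgeR 4.0.16 (TMM, quasi-likelihood F test, group as block, Benjamini-Hochberg) in R 4.3.3 on genes at 10 CPM or more in at least 3 of the 12 sums; of 10230 genes 171 were called higher and 262 lower, of which 148 and 214 met the rule for genes named by size, and 119 and 197 had a RefSeq promoter entry (152 and 276 promoters). Alternatives used DESeq2 1.42.0, limma 3.58.1 (pseudocount 1), other filters, units, thresholds and left-out groups. Shares have Clopper-Pearson and CPM Poisson 95% intervals, which cover counting error only. On simulated data for the comparison with other hair cells (10239 genes) the edgeR script recovered 47.3% of changes of 3 and 80.4% of changes of 6 on the log2 scale. Scripts ran in Python 3.11.15 with matplotlib 3.10.9, scipy 1.17.1, pandas 2.3.3 and numpy 2.4.6.

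The members, lists, markers and tests were chosen with earlier results of these data known. Genes named by size followed the rule stated with them; between ages, the 8 largest folds a side were named among genes at 50 CPM with reads in 25% of cells and 1 sign in all P6 pools and by mean per-cell CPM. Predicted, ribosomal, mitochondrial and sex-linked genes were left out of these names. Some genes are not reported here.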

Additional observations from a re-analysis of the deposited data

Results flagged for a closer look

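In 5 of 37 sets of 6 group values, 1 group of the Atoh1 positive cells stood apart from the other 5 by Dixon's ratio. The usual chance rate of about 1 set in 20 does not hold for values near 0. There, 1 nonzero value among zeros always stands apart. For Oacyl, an acyltransferase-like gene, P4 Atoh1-EGFP was at 0.446 CPM while the nearest other group was at 25.4 CPM. The other 4 were genes near 0 in these cells. Synpr was at 0.0354 CPM in P6 wildtype and 0 elsewhere, and Syt12, a synaptotagmin, at 1.11 CPM in P4 Atoh1-EGFP and 0 elsewhere. Wnt5a was at 8.58 CPM in P4 Pou4f3-DTR, with 0.0354 CPM in the nearest group, and Csmd1 at 8.79 CPM in P6 wildtype, with 0.668 CPM in the nearest.

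Atoh1 was also read outside the hair cells. Of 527 passed wells outside the hair cell rule, 22 had Atoh1 at 20 CPM or more, with a median of 153.9 CPM; by group they were 2 of 54, 6 of 59, 7 of 58, 2 of 97, 1 of 45 and 4 wells of P6 wildtype. Otog had reads in 21 and Sparcl1 in 20 of these 22 wells, both supporting cell genes, Hes6 in 7 and Slc52a3 in 2.

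The entry Pou4f3DTR of the table had reads in 5 Atoh1 positive cells, 1 from P6 Pou4f3-DTR and 4 labelled P6 wildtype, with at most 2 reads in a cell. The entry exEGFP had none, in the groups with that reporter included.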

How the results depend on the processing

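Of the tested genes 4.23% were called against the other hair cells. This became 15.6% (1593 genes) with DESeq2, 9.45% with group and pool as the unit, 8.64% with limma on mean CPM, 1.94% with no filter on low counts (444 genes of more tested) and 0.921% in maxima wells alone. Without 1 group in turn it was 1.63 to 4.52% (1.63 without P6 wildtype, 1.83 without P4 wildtype, 2.15 without P4 Atoh1-EGFP, 2.45 without P2). With no replicate block it was 3.28%, and 24 of the 30 genes named by size kept their call. Against cells without Spp1, Ocm or Atoh1, 0% became 7.21% with DESeq2 (663 genes) and 0.0404% without a filter (8 genes), and at least 10 cells in both classes left 1 group, which could not be fitted. Genes past 2-fold between ages (765) were 1542, 1577, 1299 and 1491 with P6 pool 1, 4, 5 or 6 alone. The share of Atoh1 positive cells stayed between 28.2 and 31.03%. The log2 fold change of Sox2 (0.15) was -0.28 with no replicate block, -0.16 in thinned wells and -0.28 to 0.77 without 1 group in turn, below 0 without P4 Pou4f3-DTR (-0.02), P6 Pou4f3-DTR (-0.17) or P6 wildtype (-0.28). That of Dll1 (-0.79) was 0.033 with no replicate block. The cause was not tested. For the 4 P6 Pou4f3-DTR cells, mean CPM and single pools give no value. A share rests on as few as 14 hair cells in a group.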

Other observations

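Among genes of no list above, those named by size on the higher side include Smtn, smoothelin of smooth muscle, with reads in 49.5% against 2.15% of cells (log2 fold change 7.00 ± 1.19, adjusted p = 0.0127), a call lost without P6 wildtype. Ion channel genes were named too, Asic4 (7.25 ± 1.61, adjusted p = 0.0387) and P2rx3 (8.42 ± 1.62, adjusted p = 0.0206). The Asic4 call was lost without any 1 of the groups (adjusted p up to 0.123). That of P2rx3 was lost without P4 Atoh1-EGFP, P4 Pou4f3-DTR, P4 wildtype or P6 wildtype (up to 0.0780). This grouping was made after the values were seen and was not tested as a group.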
